A study of Mus musculus with 44 samples.

Results

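Cell cycle and DNA replication genes were followed in left ventricular RNA of 44 mice. The 45 genes were taken by symbol from the annotation of the array, and 44 of them had a probe set named for them, out of 12393 genes tested. Ccnb1, which encodes the mitotic cyclin B1, had no probe set named for it alone and was not analysed here. By role the members were 13 genes of G1 control, 10 genes of DNA replication and 21 of 22 genes listed as mitotic. Of several probe sets for a gene, the one that varied most over the 44 arrays (by SD) stood for it.

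A cell enters the cycle when D-type cyclins and their kinases phosphorylate the retinoblastoma protein, which frees E2F factors to switch on genes of DNA replication. The Mcm proteins then unwind the DNA, ribonucleotide reductase and thymidylate synthase supply its building blocks, and a later wave of genes, driven through CHR and CCAAT promoter elements, builds the spindle and separates the chromosomes. Most cardiomyocytes of the adult mouse have left the cycle, so cycling cells of a heart sample are largely found among its other cell types. D-type cyclins are also known for roles in growth of heart muscle without division.

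PKCε mice carried a constitutively active rabbit PKCε (A159E) under the mouse Myh6 promoter, which is active in cardiomyocytes, on an FVB/N background, and nontransgenic FVB/N mice served as their controls. Each line received FG-3149, which binds CTGF (connective tissue growth factor), or nonimmune mouse IgG. Injections of 30 mg/kg were given 2 times per week for 3 months from an age of 3 months, and tissue was taken at 6 months. The 4 groups were PKCε FG-3149 mice (12, of which 6 were female by label), PKCε IgG mice (10, 5 female), FVB/N FG-3149 mice (12, 6 female) and FVB/N IgG mice (10, 7 female). The labels call each array a biological replicate from 1 mouse. The FVB/N mice came from a commercial breeder and the PKCε mice from another laboratory, so the line comparisons set these 2 colonies against each other as well as the transgene.

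All levels are log2 ratios of a gene to its own median over the 44 arrays, from 250 ng of RNA per mouse. A level of 0 is therefore that median, levels of different genes cannot be set against each other, and neither detection nor the absence of a marker can be read from them. In whole ventricle, fewer cells of a type and less RNA per cell cannot be told apart. Mouse numbers ran from 38 to 191 in PKCε FG-3149 mice, from 192 to 362 in PKCε IgG mice, from 338 to 349 in FVB/N FG-3149 mice and from 420 to 443 in FVB/N IgG mice, so numbering largely followed group, and effects of numbering and of group cannot be told apart. Atrial markers (Myl4, Myl7 and Sln, averaged as log2 ratios) lay above 4 on 10 arrays, 2 of PKCε FG-3149, 2 of PKCε IgG, 1 of FVB/N FG-3149 and 5 of FVB/N IgG mice. The lung markers Sftpc and Scgb1a1 both lay above 3 on 2 arrays, PKCε IgG replicates 9 and 10. Only these 2 are called lung-high below. Scgb1a1 without Sftpc also lay above 3 on FVB/N IgG replicates 4 (9.36), 5 (4.59) and 9 (5.08). The same held for FVB/N FG-3149 replicates 5 (3.10), 6 (5.17) and 7 (4.47) and PKCε FG-3149 replicate 7 (4.74). Leaving out the lung-high arrays therefore kept these arrays in. FVB/N FG-3149 replicate 11 was labelled female but carried Y-linked signal. Differences below come from 1 limma fit with a term for sex, so they can differ slightly from the difference of the raw means. Each has its SE and a Benjamini-Hochberg adjusted p, taken over every gene tested, and a gene was called at an adjusted p under 0.05.

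Promoter windows describe the members apart from the arrays. RefSeq windows of 300 bases (build GRCm38.p6, 250 bases before to 50 after the start) were held for 35 of the 44 members. The letters searched, on both strands, were TTTGGCGC, TTTCCCGC, TTTCGCGC or TTTGCCGC as an E2F element, TTTGAA as a cell cycle homology region (CHR), and CCAAT as a CCAAT box. Those of Mcm6 (chr1:128359656-128359955, minus strand), Mcm5 (chr8:75109259-75109558, plus strand), Mki67 (chr7:135716330-135716629, minus strand), Top2a (chr11:99024140-99024439, minus strand) and Cenpa (chr5:30666636-30666935, plus strand) are shown because these genes were called in the comparison of lines. They stand for Mcm genes with an E2F match, for mitotic genes with a CHR match and for a mitotic gene that behaved unlike the others. Capitals mark the matches, read 5′ to 3′ on the strand of the gene.
Mcm6: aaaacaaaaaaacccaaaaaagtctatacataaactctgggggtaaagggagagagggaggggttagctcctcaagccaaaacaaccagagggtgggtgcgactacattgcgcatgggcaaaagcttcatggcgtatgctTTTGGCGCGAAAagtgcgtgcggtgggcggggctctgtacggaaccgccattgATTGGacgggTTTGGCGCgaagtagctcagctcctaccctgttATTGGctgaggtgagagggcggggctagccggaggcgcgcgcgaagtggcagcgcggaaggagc
Mcm5: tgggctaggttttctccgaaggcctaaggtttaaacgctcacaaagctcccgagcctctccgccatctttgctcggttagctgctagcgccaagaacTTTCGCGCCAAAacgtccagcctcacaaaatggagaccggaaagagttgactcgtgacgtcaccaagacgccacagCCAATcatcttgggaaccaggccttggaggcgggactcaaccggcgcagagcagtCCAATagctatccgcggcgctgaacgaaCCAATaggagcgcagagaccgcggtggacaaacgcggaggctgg
Mki67: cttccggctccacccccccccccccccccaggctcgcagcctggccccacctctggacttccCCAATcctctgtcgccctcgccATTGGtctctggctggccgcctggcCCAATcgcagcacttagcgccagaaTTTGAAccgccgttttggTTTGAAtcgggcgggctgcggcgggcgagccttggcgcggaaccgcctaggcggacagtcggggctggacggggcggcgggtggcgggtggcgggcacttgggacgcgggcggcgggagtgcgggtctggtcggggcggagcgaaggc
Top2a: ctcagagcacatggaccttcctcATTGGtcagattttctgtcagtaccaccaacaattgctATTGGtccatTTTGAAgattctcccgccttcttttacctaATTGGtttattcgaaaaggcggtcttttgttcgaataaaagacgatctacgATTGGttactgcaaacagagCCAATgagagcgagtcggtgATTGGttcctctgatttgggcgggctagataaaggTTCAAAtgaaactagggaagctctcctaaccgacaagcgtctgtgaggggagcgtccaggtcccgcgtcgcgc
Cenpa: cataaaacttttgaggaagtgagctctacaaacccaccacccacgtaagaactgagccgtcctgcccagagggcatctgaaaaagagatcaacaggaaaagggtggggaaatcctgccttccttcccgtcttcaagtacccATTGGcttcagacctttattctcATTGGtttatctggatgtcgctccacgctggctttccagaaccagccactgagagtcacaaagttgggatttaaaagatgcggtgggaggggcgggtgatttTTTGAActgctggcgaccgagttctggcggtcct
In Mcm6 and in Mcm5 a pair of E2F matches overlaps on opposite strands, and the capitals run through both. An E2F match stood in 4 of 9 replication members (44.4%), 1 of 17 mitotic members (5.88%) and 1 of 9 G1 members (11.1%), against 2.6% of all 27025 genes with a window. Those 4 replication members were Mcm3, Mcm5, Mcm6 and Mcm7. A CHR match stood in 13 of 17 mitotic members (76.5%), 1 of 9 replication members (11.1%) and 0 of 9 G1 members, against 20.2% of all genes. All 13 of those mitotic members also held a CCAAT box, a pair found in 8.97% of all genes. A CCAAT box alone was common, at 88.2% of mitotic, 88.9% of replication and 44.4% of G1 members against 41.1% of all genes. Among the 9887 genes tested here that had a window, 4.07% held an E2F match and 15.4% a CHR match. A CCAAT box stood in 42.3% of them, and it stood together with a CHR match in 7.23%. A match describes these letters only and is not evidence of binding.

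PKCε IgG against FVB/N IgG mice asks how the transgenic ventricle differed under the control antibody. Higher in PKCε IgG hearts were 4 of 6 helicase genes (Mcm3, Mcm5, Mcm6 and Mcm7), 7 of 21 mitotic genes and the cyclin genes Ccnd1 and Ccnd2. The kinetochore gene Cenpf was lower, as was the Cdk inhibitor gene Cdkn1b by the probe set used, while its other probe set was called higher. Of the 44 members, 15 were called (34.1%), 13 higher and 2 lower, where 42.2% of all genes were called. The share of members called was thus no larger than among all genes. By direction, 29.5% of members were higher against 20.7% of all genes, and 4.55% were lower against 21.5%. The difference was positive for 34 of 44 members, with a median of 0.18, while 42.1% of all genes were positive and their median was -0.05. Members come from the same arrays and many vary together, so their signs are not independent. At an unadjusted p under 0.05 there were 19 members, against 51.1% of all genes.

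G1 control held the gene that separated the lines best. Ccnd1, encoding cyclin D1, the partner of Cdk4 and Cdk6, had levels of 0.34, 0.52 and 0.74 (lowest, median, highest) in PKCε IgG hearts and of -1.22, -0.42 and 0.02 in FVB/N IgG hearts. Each PKCε IgG value exceeded each FVB/N IgG value. Such a gap was seen for 1 of 44 members in this direction and 0 in the other, against 2.66% and 1.72% of all genes. The difference was 1.02 ± 0.13, or 2.02-fold (adjusted p = 1.48e-08), and the other probe sets of Ccnd1 gave 0.77 and 0.90. Leaving out any 1 array kept its difference between 0.95 and 1.08.

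Ccnd2, encoding cyclin D2, ran from -0.32 through a median of 0.26 to 0.79 in PKCε IgG hearts and from -0.45 through -0.06 to 0.37 in FVB/N IgG hearts. The ranges overlapped, with 5 of 10 PKCε IgG arrays above all FVB/N IgG arrays, and the difference was 0.43 ± 0.10 (adjusted p = 3.32e-04). Cdkn1b, an inhibitor of cyclin-Cdk complexes, ran from -0.72 through -0.32 to -0.04 in PKCε IgG hearts and from -0.07 through 0.26 to 0.66 in FVB/N IgG hearts. It fell by 0.61 ± 0.11 (adjusted p = 1.96e-05), and 6 of 10 PKCε IgG arrays lay below all FVB/N IgG arrays. The other 10 G1 members were not called. The largest difference among them was that of Cdkn1a, another Cdk inhibitor and a target of p53, at -0.45 ± 0.24 (adjusted p = 0.131), and the cyclin E genes Ccne1 and Ccne2 stood at -0.04 and 0.01.

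In DNA replication, 4 of 10 members were higher and 0 lower, all 4 of them subunits of the Mcm helicase. Mcm6 had levels of 0.01, 0.55 and 0.72 in PKCε IgG hearts and of -1.09, -0.17 and 0.65 in FVB/N IgG hearts (lowest, median, highest). The FVB/N IgG median was exceeded on all 10 PKCε IgG arrays, although 1 high FVB/N IgG array kept the ranges overlapping. The difference was 0.78 ± 0.17, or 1.71-fold (adjusted p = 3.19e-04), and the other Mcm6 probe set gave 0.75. Mcm5 ran from -0.16 through 0.39 to 0.92 in PKCε IgG hearts and from -1.03 through -0.28 to 0.76 in FVB/N IgG hearts, a difference of 0.74 ± 0.17 (adjusted p = 3.73e-04). Again all 10 PKCε IgG arrays exceeded the FVB/N IgG median.

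Smaller differences were called for Mcm3 (0.41 ± 0.15, adjusted p = 0.0227) and Mcm7 (0.29 ± 0.10, adjusted p = 0.0230). The Mcm7 call was lost without the 10 atrial-high arrays (0.30, adjusted p = 0.0730) and without the 2 lung-high arrays (0.23, adjusted p = 0.107). The Mcm3 call was lost without FVB/N IgG replicate 6 (0.36, adjusted p = 0.0564), and that of Mcm7 without FVB/N IgG replicate 10 (adjusted p = 0.0574) or PKCε IgG replicate 10 (adjusted p = 0.0584). Mcm2 (0.24 ± 0.17) and Mcm4 (0.09 ± 0.13) of the same helicase were not called. Neither were the sliding clamp Pcna (0.03), the ribonucleotide reductase subunits Rrm1 (-0.20) and Rrm2 (0.14), nor the thymidylate synthase Tyms (0.04).

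Among mitotic members, 7 of 21 were higher and 1 lower, and 18 of 21 differences were positive with a median of 0.36. Mki67, whose product coats chromosomes of dividing cells and marks proliferation, ran from 0.03 through 0.88 to 1.87 in PKCε IgG hearts and from -0.93 through -0.28 to 1.92 in FVB/N IgG hearts. The highest of all Mki67 values was that of an FVB/N IgG mouse, replicate 3. The difference was 0.93 ± 0.27, or 1.90-fold (adjusted p = 0.00581), and 1.14 (adjusted p = 1.46e-04) without that array. Leaving out any 1 array kept the Mki67 difference between 0.83 and 1.14, with adjusted p up to 0.0164. Its call was lost in females only (1.04, adjusted p = 0.0575) and in males only (0.70, adjusted p = 0.120). Cks2, a small subunit of Cdk complexes, ran from -0.13 through 0.90 to 1.53 in PKCε IgG hearts and from -1.0 through -0.30 to 1.15 in FVB/N IgG hearts. Its difference of 0.98 ± 0.20 (1.97-fold, adjusted p = 8.81e-05) was the largest positive one among mitotic members.

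Ccna2, the cyclin of S and G2 phase, differed by 0.96 ± 0.32 (adjusted p = 0.0150). Kif11, the kinesin that pushes spindle poles apart, ran from 0.14 through 0.34 to 1.70 in PKCε IgG hearts and from -0.78 through -0.15 to 0.35 in FVB/N IgG hearts, with 5 of 10 PKCε IgG arrays above all FVB/N IgG arrays. It differed by 0.70 ± 0.16 (adjusted p = 3.26e-04). Top2a, the topoisomerase that untangles replicated DNA, differed by 0.83 ± 0.30 (adjusted p = 0.0253), and Prc1, which bundles midzone microtubules, by 0.62 ± 0.21 (adjusted p = 0.0158).

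Those last calls were less firm. Top2a lost its call without FVB/N IgG replicate 4 (0.67, adjusted p = 0.0618), without PKCε IgG replicate 1 (0.70, adjusted p = 0.0547), without PKCε IgG replicate 9 (0.74, adjusted p = 0.0550) and without both lung-high arrays (0.73, adjusted p = 0.0783). Prc1 lost its call without the lung-high arrays (0.57, adjusted p = 0.0511) and without the atrial-high arrays (0.57, adjusted p = 0.0745). Averaging the probe sets of a gene also ended the calls of Top2a (0.30, adjusted p = 0.0915) and Prc1 (0.34, adjusted p = 0.0811). Fitting only the 2 groups compared ended those of Top2a (0.79, adjusted p = 0.0856), Prc1 (0.59, adjusted p = 0.0526) and Ccna2 (0.90, adjusted p = 0.0541). Ccna2, Mki67, Cks2 and Kif11 kept theirs whichever single array was left out. Yet the lowest of 3 Kif11 probe sets stood at -0.06 and the other Ccna2 probe set at 0.33. Both calls held with probe sets averaged.

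The centromere genes went separate ways. Cenpa, the histone H3 variant that marks centromeres, ran from -0.01 through 0.25 to 0.52 in PKCε IgG hearts and from -0.56 through -0.13 to 0.02 in FVB/N IgG hearts. It differed by 0.36 ± 0.06 (adjusted p = 1.49e-06), and 8 of 10 PKCε IgG arrays lay above all FVB/N IgG arrays. Cenpf, a kinetochore protein of G2 and mitosis, ran from -1.66 through -0.64 to 0.13 in PKCε IgG hearts and from -0.67 through 0.69 to 1.33 in FVB/N IgG hearts. It fell by 1.19 ± 0.25 (adjusted p = 1.73e-04), the largest negative difference among the members, with every PKCε IgG array below the FVB/N IgG median. Of the 13 mitotic members not called, Cdk1, the mitotic kinase, had the largest difference at 0.43 ± 0.27 (adjusted p = 0.193). Without the 10 atrial-high arrays 15 members were called, and without the 2 lung-high arrays 12. The share of all genes called in those fits is not given here.

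**Figure D1:**
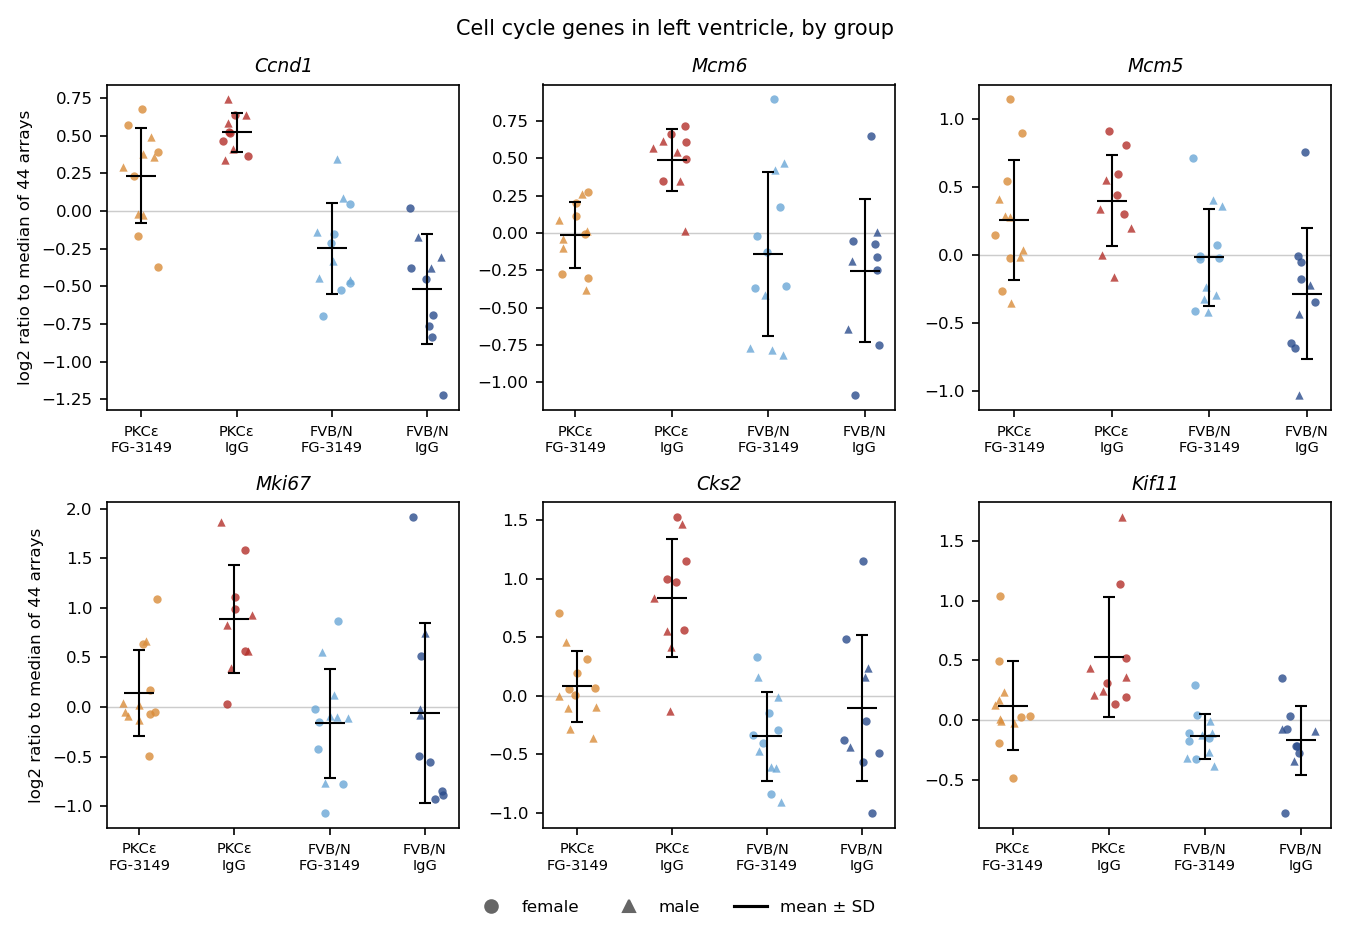
Log2 ratio to the median of 44 arrays (vertical axes) of 6 members in the 4 groups, with 1 symbol per mouse (circles female, triangles male) and the mean ± SD in black. Ccnd1 arrays of PKCε IgG mice all lie above those of FVB/N IgG mice, while for Mki67 the highest value, 1.92, belongs to an FVB/N IgG mouse.

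Markers of some other cells, and 1 of 2 measures of RNA quality, moved with the lines. Of 13 fibroblast markers measured (14 listed), 11 were higher and 0 lower in PKCε IgG hearts. The mean fibroblast marker level ran from 0.17 to 1.23 in PKCε IgG hearts and from -0.77 to 0.23 in FVB/N IgG hearts. Of 14 macrophage markers 2 were higher, and of 8 T and B cell markers 1 was lower. All 6 adipocyte markers measured were lower, with mean levels from -1.01 to 0.90 in PKCε IgG and from -0.98 to 4.40 in FVB/N IgG hearts. Ventricular cardiomyocyte markers had 2 of 13 higher and 6 lower. RNA quality was read from Gapdh probe sets, whose 3′ minus 5′ log2 difference grows with degradation. It averaged 0.30 ± 0.25 in PKCε IgG and -0.04 ± 0.08 in FVB/N IgG hearts (SD, n = 10 each). The same difference for Actb averaged 0.09 ± 0.25 in PKCε IgG and 0.10 ± 0.10 in FVB/N IgG hearts. The part of cell makeup in the member differences was not tested. In a fit with the Gapdh difference as a covariate 12 members were called, Ccnd1 stood at 1.01 and Mki67 at 0.89, and the calls of Ccnd2 (0.25, adjusted p = 0.0693), Mcm7, Mcm3, Top2a and Prc1 were lost. The share of all genes called in that fit is not given here.

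PKCε FG-3149 against PKCε IgG mice asks what the antibody changed in transgenic hearts. Few members passed the test, although most differences were below 0: 3 of 44 were called (6.82%), where 8.82% of all genes were. Mcm6 and Cks2 fell (3.74% of all genes were lower) and Cenpa rose (5.08% were higher). No member was free of overlap between the groups, nor were many genes (0.0646% higher, 0.0484% lower). The difference was negative for 36 of 44 members, while 56.4% of all genes were positive. It was negative for 19 of 21 mitotic members, whose median was -0.39 against 0.02 for all genes. Mitotic members vary together from array to array, so these signs are not independent. At an unadjusted p under 0.05 there were 18 of 44 members, against 22.3% of all genes.

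Cks2 had levels of -0.36, 0.03 and 0.71 (lowest, median, highest) in PKCε FG-3149 hearts and of -0.13, 0.90 and 1.53 in PKCε IgG hearts. The ranges overlapped, and all 12 PKCε FG-3149 arrays lay below the PKCε IgG median. Cks2 fell by 0.76 ± 0.19 (adjusted p = 0.00766), and leaving out any 1 array kept the call. Mcm6 ran from -0.38 through 0.00 to 0.27 in PKCε FG-3149 hearts and from 0.01 through 0.55 to 0.72 in PKCε IgG hearts. It fell by 0.50 ± 0.16 (adjusted p = 0.0439), and all 12 arrays again lay below the PKCε IgG median. That call was lost on leaving out any of 17 of the 44 arrays in turn, with adjusted p up to 0.0773 and differences between -0.55 and -0.47. It was also lost without the atrial-high arrays (-0.41, adjusted p = 0.135) and without the lung-high arrays (-0.52, adjusted p = 0.0926).

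Cenpa moved against most mitotic genes. It ran from 0.06 through 0.46 to 0.66 in PKCε FG-3149 hearts and from -0.01 through 0.25 to 0.52 in PKCε IgG hearts, and 10 of 12 PKCε FG-3149 arrays lay above the PKCε IgG median. The difference was 0.19 ± 0.05 (adjusted p = 0.0178), and it did not pass without the lung-high arrays (0.16, adjusted p = 0.115). Without those arrays Cks2 alone was called (-0.67, adjusted p = 0.0498).

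Mki67 had levels of -0.50, -0.01 and 1.09 in PKCε FG-3149 hearts and of 0.03, 0.88 and 1.87 in PKCε IgG hearts. Of the 12 PKCε FG-3149 arrays, 7 lay below every PKCε IgG array, yet the difference of -0.74 ± 0.26 did not pass (adjusted p = 0.0637). The largest difference among members not called was that of Ccna2 at -0.79 ± 0.31 (adjusted p = 0.103). Top2a stood at -0.75 ± 0.29 (adjusted p = 0.0961), Nusap1, which binds spindle microtubules, at -0.54 ± 0.19 (adjusted p = 0.0629), Kif11 at -0.41 ± 0.15 (adjusted p = 0.0768) and Prc1 at -0.49 ± 0.20 (adjusted p = 0.118). Kif20a, a kinesin of cytokinesis, stood at -0.31 ± 0.11 (adjusted p = 0.0617). For each of these members at least 10 of 12 PKCε FG-3149 arrays lay below the PKCε IgG median. The other Nusap1 probe set stood at 0.13 and 1 of 3 Kif11 probe sets at 0.11, both above 0. Those of Ccna2 (-0.39), Top2a (-0.08) and Prc1 (-0.20) were below 0.

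None of the 13 G1 members was called, and 3 had an unadjusted p under 0.05. They were Cdkn1a (-0.58 ± 0.23, adjusted p = 0.114), Ccnd1 (-0.29 ± 0.12, adjusted p = 0.130) and E2f1, the activating E2F factor (-0.22 ± 0.09, adjusted p = 0.140). Ccnd1 levels in PKCε FG-3149 hearts ran from -0.37 through 0.33 to 0.68, and 6 of these 12 arrays lay below every PKCε IgG array. In replication, Rrm2 had the largest difference not called (-0.43 ± 0.18, adjusted p = 0.129).

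Other markers moved in this comparison as well. Of 13 fibroblast markers 5 were lower and 0 higher, with mean levels from -0.07 to 0.89 in PKCε FG-3149 and from 0.17 to 1.23 in PKCε IgG hearts. Of 13 ventricular cardiomyocyte markers 4 were higher and 0 lower, of 12 endothelial markers 2 were lower, and 0 of 14 macrophage markers were called. The Gapdh difference averaged 0.04 ± 0.11 in PKCε FG-3149 hearts (SD, n = 12) and 0.30 ± 0.25 in PKCε IgG hearts (SD, n = 10). With it as a covariate Nusap1 alone was called, and Mcm6 stood at -0.43 (adjusted p = 0.220), Cks2 at -0.65 (adjusted p = 0.0769) and Cenpa at 0.19 (adjusted p = 0.0678). The part of cell makeup was not tested.

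**Figure D2:**
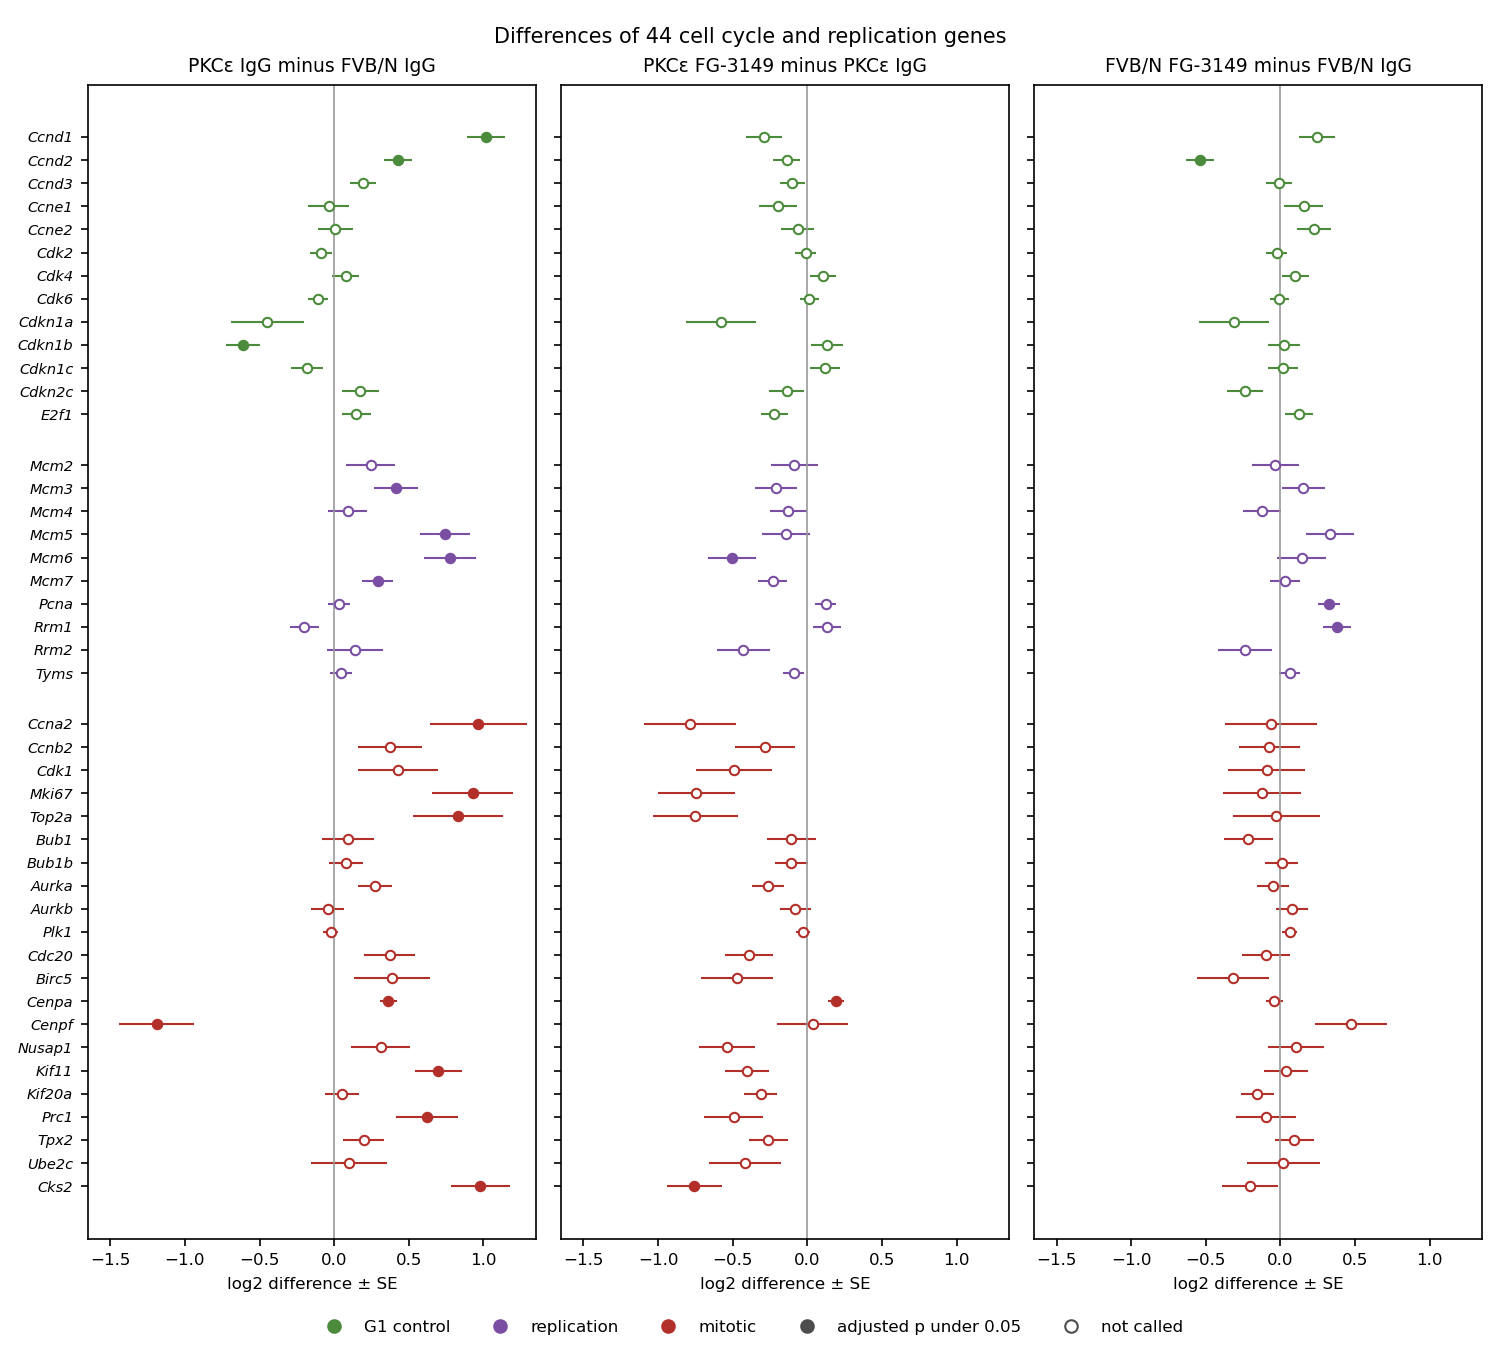
Log2 difference ± SE of the 44 members in 3 comparisons, ordered by role (green G1 control, purple replication, red mitotic); filled points passed an adjusted p of 0.05. In the left panel 13 filled points lie right of 0 and 2 left of it, while in the middle panel 36 of 44 points lie left of 0 but 3 are filled.

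FVB/N FG-3149 against FVB/N IgG mice asks what the antibody changed without the transgene. Again 3 of 44 members were called (6.82%), where 9.01% of all genes were, and they were other genes: Ccnd2 fell (4.58% of all genes were lower), and Pcna and Rrm1 rose (4.43% were higher). Ccnd2 ran from -0.92 through -0.70 to -0.35 in FVB/N FG-3149 hearts and from -0.45 through -0.06 to 0.37 in FVB/N IgG hearts. It fell by 0.54 ± 0.09 (adjusted p = 1.06e-04), and 10 of 12 FVB/N FG-3149 arrays lay below all FVB/N IgG arrays. Rrm1, the large subunit of ribonucleotide reductase, ran from -0.06 through 0.46 to 0.75 in FVB/N FG-3149 hearts and from -0.43 through 0.02 to 0.75 in FVB/N IgG hearts.

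The highest Rrm1 value in FVB/N IgG mice was that of replicate 3, and 11 of 12 FVB/N FG-3149 arrays lay above the FVB/N IgG median. Rrm1 rose by 0.38 ± 0.09 (adjusted p = 0.00666), while its other probe set stood at -0.02 (adjusted p = 0.879). Pcna, the clamp that holds DNA polymerase, rose by 0.32 ± 0.07 (adjusted p = 0.00285), with all 12 FVB/N FG-3149 arrays above the FVB/N IgG median. None of the 21 mitotic members was called by limma, and 0 had an unadjusted p under 0.05 (4 of all 44 members, against 22.4% of all genes). The largest mitotic difference was that of Cenpf at 0.47 (not called), and Mki67 stood at -0.12. All 3 calls held without the atrial-high arrays, where Ccnd2 stood at -0.48, Pcna at 0.42 and Rrm1 at 0.52. All 3 atrial markers were lower in FVB/N FG-3149 hearts, at mean levels from -2.97 to 4.40 against -1.16 to 8.47 in FVB/N IgG hearts. Fibroblast markers were lower in 3 of 13, and adipocyte markers in 5 of 6, and their part was not tested.

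PKCε FG-3149 against FVB/N FG-3149 mice shows the lines under the antibody, on arrays separate from those of the IgG comparison. Of 44 members, 13 were called (29.5%), 5 higher and 8 lower, where 47.0% of all genes were called. By direction 11.4% of members were higher and 18.2% lower, against 21.5% and 25.5% of all genes. At an unadjusted p under 0.05 there were 14 members, against 54.9% of all genes. G1 genes made up 7 of the calls. Ccnd2 had levels of -0.15, 0.14 and 0.56 in PKCε FG-3149 hearts and of -0.92, -0.70 and -0.35 in FVB/N FG-3149 hearts. The groups did not overlap, and the difference was 0.83 ± 0.09 (adjusted p = 2.86e-10).

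Cenpa did not overlap either (0.06, 0.46 and 0.66 in PKCε FG-3149 hearts, against -0.36, -0.14 and -0.02 in FVB/N FG-3149 hearts). It differed by 0.59 ± 0.05 (adjusted p = 2.68e-12). These 2 members of 44 were free of overlap in the higher direction, against 2.70% of all genes. Ccnd1 was higher by 0.48 ± 0.11 (adjusted p = 7.33e-04). Cks2 (0.43 ± 0.18, adjusted p = 0.0470) and Cdkn2c, an inhibitor of Cdk4 and Cdk6 (0.27 ± 0.11, adjusted p = 0.0448), passed narrowly: leaving out 1 array ended the call of Cks2 for 17 of 44 arrays and that of Cdkn2c for 16. Among them was FVB/N FG-3149 replicate 11, whose sex label is in doubt.

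Lower in PKCε FG-3149 hearts were Cenpf (-1.63 ± 0.23, adjusted p = 2.06e-07), Cdkn1a (-0.72 ± 0.22, adjusted p = 0.00781), Cdkn1b (-0.51 ± 0.10, adjusted p = 8.24e-05) and Rrm1 (-0.45 ± 0.09, adjusted p = 6.30e-05). Their other probe sets stood nearer to no difference for Cenpf (-0.27) and Rrm1 (-0.04). The cyclin E genes, whose products drive Cdk2 into S phase, were also lower, Ccne1 at -0.39 ± 0.12 (adjusted p = 0.00829) and Ccne2 at -0.28 ± 0.11 (adjusted p = 0.0281). The Ccne2 call was lost on leaving out any of 4 arrays (adjusted p up to 0.0584), without the atrial-high arrays (-0.25, adjusted p = 0.0504) and with the Gapdh covariate (-0.26, adjusted p = 0.0660). The mitotic kinase gene Plk1 (-0.11 ± 0.05, adjusted p = 0.0437) and Pcna (-0.17 ± 0.07, adjusted p = 0.0405) completed the 8, and they lost their calls for 12 and 13 of the 44 arrays, replicate 11 included. Neither Mcm6 nor Mki67 was called here. Of the 15 members called between lines under IgG, 6 were called in the same direction under FG-3149 (40%, and 46.2% of the 13): Ccnd1, Ccnd2, Cdkn1b, Cenpa, Cenpf and Cks2. None was called in the opposite direction. This overlap was not counted over all genes, so it has no background share to be read against. The other Cdkn1b probe set was called higher in both comparisons. In this comparison 13 of 13 fibroblast markers were higher, with mean levels from -0.07 to 0.89 in PKCε FG-3149 and from -0.99 to -0.47 in FVB/N FG-3149 hearts. Of 14 macrophage markers 5 were higher, of 13 cardiomyocyte markers 2 were higher and 6 lower, and of 6 erythroid markers 4 were lower. The Gapdh difference averaged 0.04 ± 0.11 in PKCε FG-3149 and -0.13 ± 0.20 in FVB/N FG-3149 hearts (SD, n = 12 each). With it as a covariate 10 members were called, and the share of all genes called in that fit is not given here. The part of cell makeup was not tested.

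**Figure D3:**
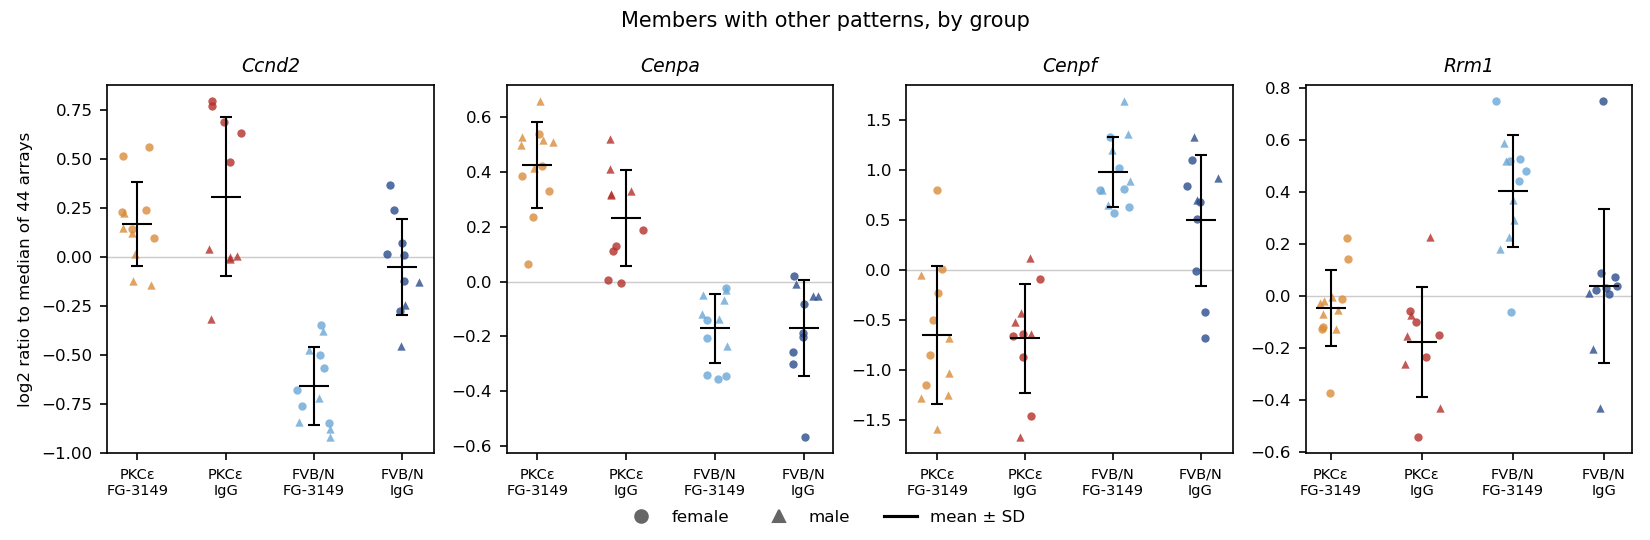
Log2 ratio to the median of 44 arrays (vertical axes) of 4 members that do not follow Mki67, in the 4 groups, with 1 symbol per mouse (circles female, triangles male) and the mean ± SD in black. Ccnd2 and Cenpa of PKCε FG-3149 mice lie above those of FVB/N FG-3149 mice without overlap, and the highest Cenpf value in PKCε IgG mice is 0.13.

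The line-by-antibody interaction tests whether the antibody effect differed between lines. It called 0 of 44 members in limma, where 3.87% of all genes were called (2.09% positive, 1.78% negative), and 9 members had an unadjusted p under 0.05, against 16.2% of all genes. The lowest p belonged to Ccnd1, whose antibody difference in PKCε mice minus that in FVB/N mice was -0.53 ± 0.17 (adjusted p = 0.0684). Ccnd2 stood at 0.40 ± 0.13 (adjusted p = 0.0687), Cenpa at 0.23 ± 0.08 (adjusted p = 0.0759) and Mcm6 at -0.65 ± 0.23 (adjusted p = 0.116). All 10 replication members had negative values, while 47.5% of all genes were positive. These values come from the same arrays and are not independent. FVB/N IgG replicate 3 was the highest of its group for 8 of 10 replication members. Leaving out 1 array at a time called between 0 and 3 members. The count of 3 came without FVB/N IgG replicate 3, which carried the highest Mki67 value. Those called were Ccnd1, Mcm6 and Nusap1, all negative, and the share of all genes called in that fit is not given here. With all arrays the other Nusap1 probe set stood at 0.06.

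Females and males differed in few members: 3 of 44 were called (6.82%), where 15.8% of all genes were (8.67% higher in females, 7.12% lower). At an unadjusted p under 0.05 there were 11 members, against 32.7% of all genes. Ccnd2 (0.33 ± 0.06, adjusted p = 4.55e-04) and Mcm7 (0.28 ± 0.07, adjusted p = 0.00489) were higher in females and Cenpa (-0.20 ± 0.04, adjusted p = 4.58e-04) was lower. In PKCε IgG hearts the sexes did not overlap for Ccnd2, at 0.48, 0.69 and 0.79 in the 5 females and -0.32, -0.00 and 0.04 in the 5 males (lowest, median, highest). Nor did they for Cenpa, with females up to 0.19 and males from 0.31. Cdkn1c did not overlap either, with females up to -0.095 and males from -0.034. The share of all genes without such overlap was not counted. PKCε IgG females carried mouse numbers 322 to 362 and males 192 to 196, so in that group sex and numbering cannot be told apart. The antibody difference in PKCε mice for Ccnd2, females minus males, was -0.48 ± 0.15 (unadjusted p = 0.00374, adjusted p = 0.369). The sex difference of the antibody effect called 0 of 44 members in limma (4 at an unadjusted p under 0.05), where 0.0161% of all genes were called. That of the line effect under IgG also called 0 (3 unadjusted), where 0.0807% of all genes were called.

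The 44 members had 85 probe sets in all, 25 members had more than 1, and some of these disagreed. In PKCε IgG against FVB/N IgG, 10 of the 25 had probe sets of opposite sign with an unadjusted p under 0.05 on at least 1 side, and in 3 of them both sides were called. For Ccnd2, 6 of 7 probe sets were higher, from 0.33 to 0.82, and 1 was lower at -0.26 (adjusted p = 0.0212). For Cdkn1b the probe set used stood at -0.61 and the other at 0.31 (adjusted p = 5.27e-05), so the direction of this inhibitor gene depends on the probe set. The same pair split in PKCε FG-3149 against FVB/N FG-3149, at -0.51 and 0.34. In that comparison 5 of the 25 members had probe sets of opposite sign with an unadjusted p under 0.05 on at least 1 side. Besides Cdkn1b they were Mcm3, Mcm7, Top2a and Bub1, without both sides called.

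For Mcm3, 4 probe sets stood between 0.04 and 0.52 and 1 at -0.15 (adjusted p = 0.0327). The other probe set of Top2a stood at -0.23, that of Cenpf at -0.14 (adjusted p = 0.191), that of Prc1 at 0.07 and that of Ccna2 at 0.33, all not called, and those of Kif11 at 0.11 and -0.06. The other Cks2 probe set was called at 0.62 (adjusted p = 0.0279). Nusap1 stood at 0.31 and -0.17, Rrm2 at 0.14, 0.05 and -0.09, Tyms at 0.04, -0.03 and -0.16, Bub1 at 0.09 and -0.14 and Cdc20, which activates the anaphase-promoting complex, at 0.37, 0.10 and -0.08. In PKCε FG-3149 against PKCε IgG, 3 of the 7 Ccnd2 probe sets were called lower, at -0.30, -0.39 and -0.37, although the one used was not. One Mcm7 probe set was also called lower (-0.31, adjusted p = 0.0300) where the one used, at -0.23, was not. In that comparison 6 of the 25 members had probe sets of opposite sign with an unadjusted p under 0.05 on at least 1 side. None had both sides called. The highest probe set stood at 0.16 for Ccnd2, 0.13 for Nusap1 and 0.11 for Kif11. For Mcm3, Mcm7 and Rrm2 it stood at 0.06, 0.05 and 0.03.

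**Figure D4:**
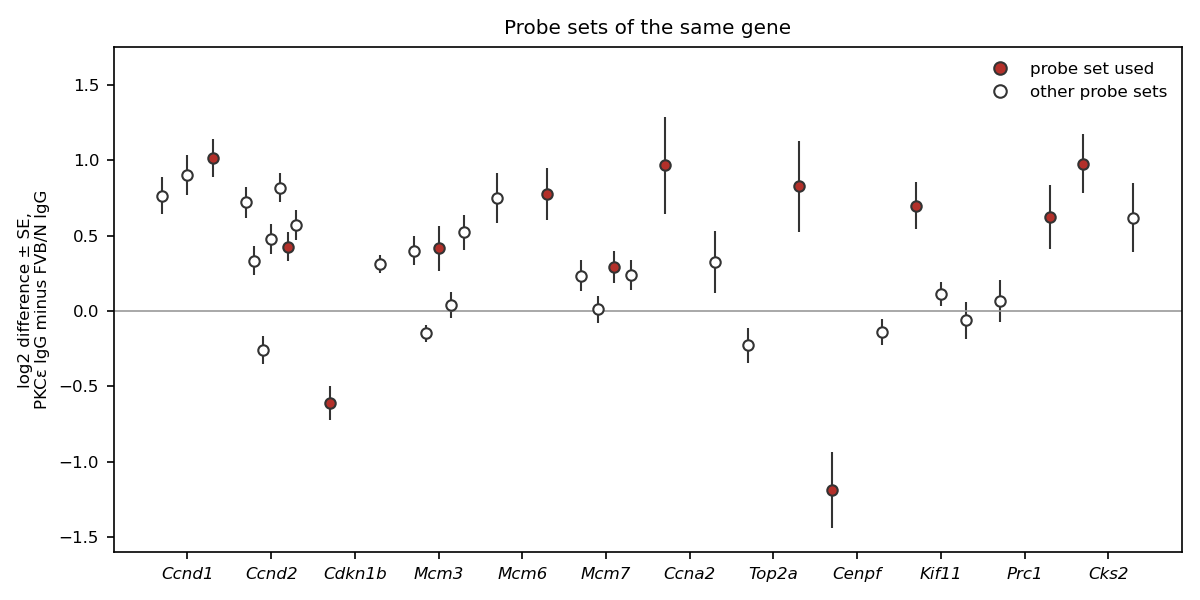
Log2 difference ± SE of PKCε IgG minus FVB/N IgG (vertical axis) for every probe set of 12 members called in that comparison; red points are the probe sets used and open points the others. The 3 Ccnd1 probe sets lie together between 0.77 and 1.02, while those of Cdkn1b lie on both sides of 0.

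Within groups the mitotic members varied together from mouse to mouse. Each level was taken as its deviation from the mean of its group and sex, over 44 arrays, and set against that of Mki67 for the other 43 members. Pearson's r was 0.92 for Ccnb2, a mitotic cyclin (Spearman's rho 0.82), 0.91 for Ccna2 (rho 0.84), 0.90 for Birc5 of the chromosomal passenger complex (rho 0.83), 0.90 for Top2a (rho 0.84) and 0.89 for Cdk1 (rho 0.84). Each had a permutation p of 1e-05, the smallest that 100000 resamples within group and sex can give, and an adjusted p of 5.37e-05 over the 43 members. Without the 2 arrays farthest on Mki67, FVB/N IgG replicate 3 and FVB/N FG-3149 replicate 6, these r values were 0.90, 0.85, 0.86, 0.83 and 0.84.

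By role the median r with Mki67 was 0.69 over 20 mitotic, 0.43 over 10 replication and 0.11 over 13 G1 members, and 9 of 20 mitotic members lay above 0.7. The lowest r among the mitotic members were those of Cenpa (r = -0.28, rho = -0.41, adjusted permutation p = 0.240 and 0.0354), Aurka (0.16), Aurkb (0.20), Plk1 (0.28) and Cenpf (0.31). Without those 2 arrays r was 0.38 for Mcm6 (0.57 with them, rho 0.37, adjusted permutation p = 0.00172 and 0.0406) and 0.36 for Ccnd1 (0.52 with them, rho 0.38, adjusted permutation p = 0.00487 and 0.0364). Mki67 and these members come from the same arrays and share their scaling. The spread was carried by whole arrays: PKCε IgG replicate 1 was the highest of its group for 16 of 21 mitotic members, FVB/N FG-3149 replicate 6 for 12, FVB/N IgG replicate 3 for 13 and PKCε FG-3149 replicate 1 for 11. FVB/N IgG replicate 3 was also highest for 8 of 10 replication members, and its mean levels were 8.14 for atrial and 0.74 for macrophage markers, where 0.74 was the highest macrophage level of its group. Whether admixed tissue moved these members was not tested.

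**Figure D5:**
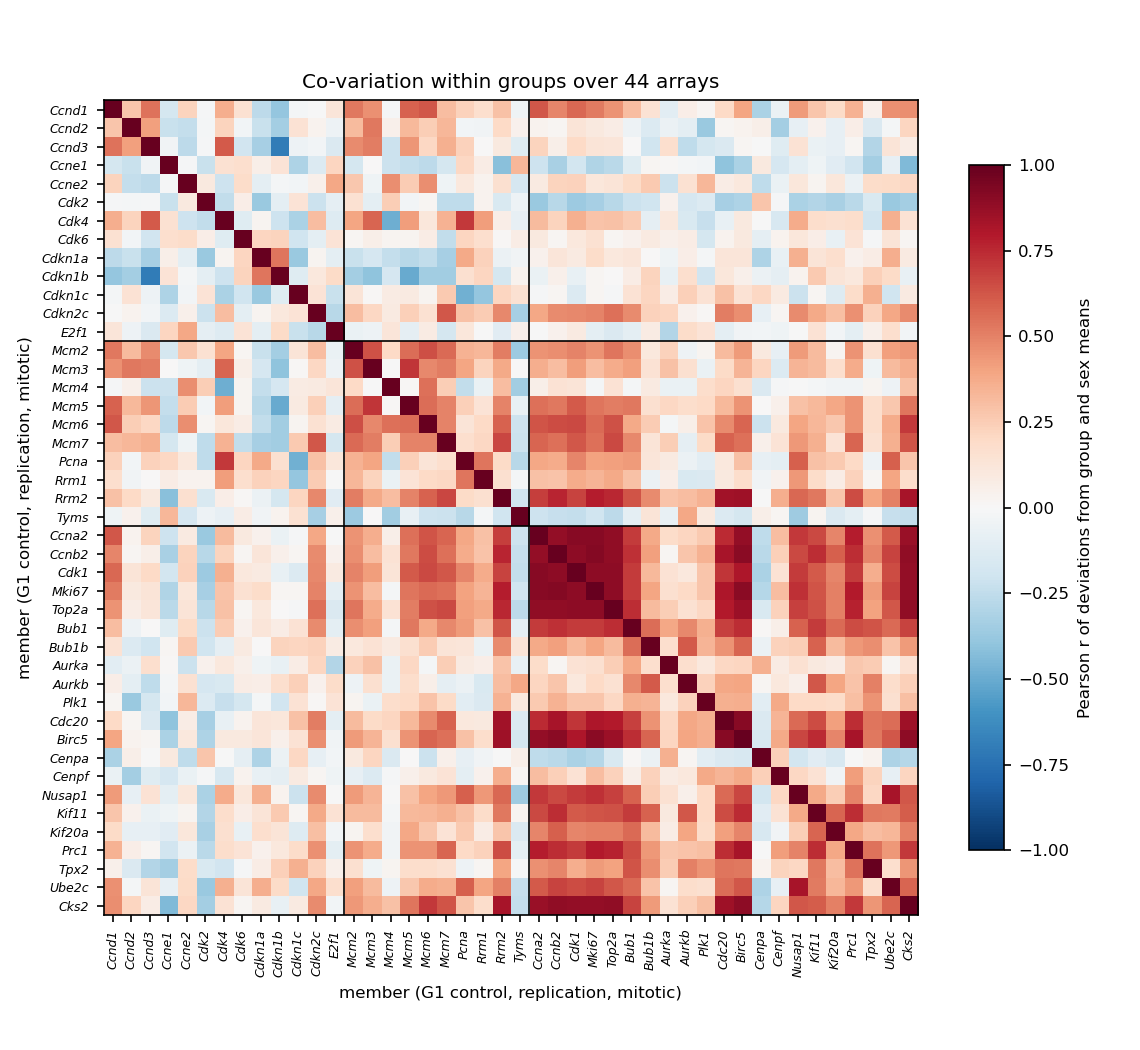
Pearson r between members (both axes, ordered G1 control, replication, mitotic with black dividing lines) of deviations from group and sex means over 44 arrays; red is positive and blue negative. The dark block of Ccna2, Ccnb2, Cdk1, Mki67 and Top2a holds the values near 0.9, and the row of Cenpa stays pale.

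Other genes of the same pathways, listed apart from the members, are read against all genes, of which 20.7% were higher and 21.5% lower between the lines under IgG. Of 38 further replication genes 8 were higher (21.1%) and 6 lower (15.8%) in PKCε IgG than in FVB/N IgG hearts, with a median of 0.05 against -0.05 for all genes. Dut, which clears dUTP, fell by 0.61 ± 0.07 (adjusted p = 1.01e-09), and lower too were Rpa2 of the single-strand binding complex (-0.51) and Gmnn, the licensing inhibitor geminin (-0.49), while Pole3, a polymerase epsilon subunit, was higher (0.43). In PKCε FG-3149 against PKCε IgG hearts 2 were higher, Dut (0.25) and Rpa2 (0.31), and 1 lower, Pole3 (-0.19). In FVB/N FG-3149 against FVB/N IgG hearts 2 were higher, Pola1 (0.33) and Rfc4 (0.25). Pola1 (-0.36) and Pole3 (-0.30) were called in the interaction. In PKCε FG-3149 against FVB/N FG-3149 hearts 3 were higher and 9 lower.

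Of 30 pocket protein, E2F and checkpoint genes 6 were higher (20%) and 7 lower (23.3%) in PKCε IgG than in FVB/N IgG hearts, near the shares of all genes. Cdkn2b, an inhibitor of Cdk4 and Cdk6, was higher (0.77 ± 0.13, adjusted p = 5.93e-06), and Ccnh, the cyclin of Cdk7, was lower (-0.41 ± 0.06, adjusted p = 9.35e-07). In PKCε FG-3149 against PKCε IgG hearts 3 were higher, Wee1, the kinase that holds Cdk1 inactive (0.67 ± 0.12, adjusted p = 4.62e-04), Ccng2 (0.49) and Ccnh (0.29), and 2 lower, among them Cdkn2b (-0.48). In FVB/N FG-3149 against FVB/N IgG hearts 1 was lower, Fbxw7 (-0.30), and 4 were higher and 5 lower in PKCε FG-3149 against FVB/N FG-3149 hearts. Wee1 was the 1 gene of this list called in the interaction (0.76 ± 0.18, adjusted p = 0.00740).

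Of 40 further mitotic genes 7 were higher (17.5%) and 2 lower (5%) in PKCε IgG than in FVB/N IgG hearts, both below the shares of all genes, with a median of 0.10. Those with the lowest p were the condensin genes Smc4 (0.63 ± 0.10, adjusted p = 2.23e-06) and Smc2 (0.49), Spc25 of the outer kinetochore (0.69) and Plk4, which drives centriole duplication (0.44). In PKCε FG-3149 against PKCε IgG hearts 1 was lower, Kif22 (-0.43 ± 0.13, adjusted p = 0.0295), and the list's median was -0.18 against 0.02 for all genes. None of the 40 was called in FVB/N FG-3149 against FVB/N IgG hearts, and 2 were higher and 4 lower in PKCε FG-3149 against FVB/N FG-3149 hearts. Over all 6 comparisons 22 of the 44 members were called at least once and 22 never, among them Cdk2, Cdk4, Cdk6, Ccnd3 and Cdkn1c of G1 control and Aurkb, Bub1b, Tpx2 and Ube2c of mitosis. The share of all genes called at least once was not counted. In PKCε FG-3149 against FVB/N FG-3149 hearts alone it was 47.0%, so the count of 22 sets the members apart from no background.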

How the data were processed

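Left ventricular RNA of 44 mice was hybridised to Affymetrix 430A 2.0 arrays, 1 per mouse. Per the labels, the authors took the array files through GCRMA, whose version is not stated, and rescaled them by the median per gene in GeneSpring GX 7.3.1. The deposited values are therefore ratios on a linear scale, and each of the 22690 probe sets had a median within 0.001 of 1 over the arrays. They ran from 0.01 to 1104, 25 stood at the lowest value, and array medians ran from 0.954 to 1.032. Signal over background is not in the ratios, so the number of arrays limits the precision. Such rescaling removes the level of each gene and keeps the differences between arrays. The genome build of the files is not given in the sources used here, and the only coordinates printed are those of RefSeq promoter windows.

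Log2 ratios were computed. Of the probe sets, 20393 had 1 gene symbol, 691 several and 1606 none, and only the first were used, without control probe sets. Per gene the most variable probe set (by SD over the 44 arrays) was kept, which left 12393 genes. All 44 arrays entered 1 limma fit (limma 3.58.1, R 4.3.3; lmFit and eBayes) with 4 group means and a term for sex, two-sided, with Benjamini-Hochberg adjustment over all genes (over all probe sets for values of single probe sets). Sex differences of an effect came from 8 cell means of group and sex. The fit was tested on simulated data.

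The members, the wider gene lists and the markers were chosen with earlier results of these data known, as were the tests. Named with values were Ccnd1 and Mcm6, every member called in at least 1 comparison, those whose probe sets disagreed, the largest difference not called in each role and up to 4 genes of a wider list with the lowest p. Members that vary with Mki67 were added after their values were seen. Replicate numbers did not pair the mice: correlations of same-numbered arrays' deviations ran from -0.26 to 0.21. Alternatives were the sex term, a replicate block, probe sets averaged, 2 array scalings, a filter at an SD of 0.15, a pseudocount of 0.1, a floor of 0.05, robust eBayes, array weights, fewer groups or 1 sex, the Gapdh difference, arrays high in atrial or lung markers, 1 array with a doubtful label, a threshold of 0.01, and each array left out.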

Additional observations from a re-analysis of the deposited data

Results flagged for a closer look

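In the IgG groups, where 10 arrays each allow the test, 10 of 88 combinations of member and group had 1 array whose gap to its nearest neighbour was large against the range of the group. Chance flags about 1 in 20 groups where these are independent. Members vary together within an array, so the 10 flags cannot be read against that rate. In PKCε IgG mice, replicate 1 stood far above the others for Bub1 (1.65, next 0.68), Bub1b (0.98, next 0.33), Prc1 (1.83, next 0.77) and Tpx2 (1.59, next 0.24). Replicate 8 stood high for Cdk2 (0.36, next 0.01), and replicate 4 stood low for Mcm6 (0.013, next 0.35). In FVB/N IgG mice, replicate 3 stood far above the others for Mcm2 (0.73, next 0.19), Rrm1 (0.75, next 0.09), Bub1 (1.23, next 0.54) and Nusap1 (1.39, next 0.38). The 8 high values of PKCε IgG replicate 1 and FVB/N IgG replicate 3 are all of mitotic or replication members.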

How the results depend on the processing

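No member changed direction under any alternative in a comparison where it was called. Members not called were not followed through every alternative, and some turned: Cdk1 in PKCε IgG against FVB/N IgG stood at -0.08 in males only. Counts of called members within 1.5 times of the reported ones are not listed. For PKCε IgG against FVB/N IgG the count of 15 fell to 5 in males only, and ran from 14 to 19 on leaving out 1 array. For PKCε FG-3149 against PKCε IgG the count of 3 became 1 with no sex term, 9 with array weights, 7 with only the groups compared, 0 in males only, 1 in females only, 1 with the Gapdh covariate, 1 without lung-high arrays and 1 at an adjusted p under 0.01. It ran from 2 to 7 on leaving out 1 array, with 5 without FVB/N IgG replicate 3 and 7 without PKCε FG-3149 replicate 1. For FVB/N FG-3149 against FVB/N IgG the count of 3 became 1 in males and 1 in females only, and stayed between 3 and 3 on leaving out 1 array. For PKCε FG-3149 against FVB/N FG-3149 the count of 13 became 6 in males only, 7 in females only and 8 at an adjusted p under 0.01, and ran from 9 to 14 on leaving out 1 array. For the interaction, 0 became 1 with averaged probe sets (E2f1), 1 with quantile normalization (Ccnd2), 2 with the Gapdh covariate (Ccnd2 and Pcna) and 1 without lung-high arrays (Ccnd2), and ran from 0 to 3 on leaving out 1 array. For females against males, 3 became 7 with averaged probe sets and 5 with the Gapdh covariate, and ran from 3 to 6 on leaving out 1 array (6 without PKCε FG-3149 replicate 7). The sex differences of both effects stayed at 0 in all 12 alternatives. One sex only leaves fewer arrays, and other causes were not tested. The share of all genes called in each alternative is not given here, so these counts have no background share to be read against.

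Cks2 lost its antibody call in PKCε mice with averaged probe sets (-0.54, adjusted p = 0.0791), in either sex alone and with the Gapdh covariate. Rrm1 lost its antibody call in FVB/N mice with averaged probe sets (0.18, adjusted p = 0.0685). With the replicate number as a block, 15, 2, 3, 11, 0 and 3 members were called in the 6 comparisons in the order above, and Mcm6 lost its antibody call in PKCε mice. Array centring and quantile normalization moved the median of all genes by at most 0.03. Detection and signal over background limit every value and are not in the ratios.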

Other observations

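Further genes of the same pathways were compared between females and males, where 8.67% of all genes were higher and 7.12% lower in females. Of 38 further replication genes 3 were higher (7.89%) and 3 lower (7.89%), near those shares. Pold2, a polymerase delta subunit, was higher (0.27 ± 0.04, adjusted p = 3.76e-05) and Gmnn lower (-0.35 ± 0.07, adjusted p = 8.10e-04). Of 30 pocket protein, E2F and checkpoint genes 4 were higher (13.3%) and 3 lower (10%), with Wee1 (0.53 ± 0.09, adjusted p = 5.80e-05) and the phosphatase gene Cdc25b (0.35) higher, and Gadd45a, a gene of the DNA damage response (-0.43 ± 0.07, adjusted p = 9.07e-05), lower. Of 40 further mitotic genes 3 were higher (7.5%), the condensin genes Smc4 (0.26) and Smc2 (0.29) and the checkpoint gene Bub3 (0.19), and 2 were lower (5%), among them Lmnb1 (-0.19). Of 13 fibroblast markers 6 were higher in females, as were 6 of 14 macrophage markers, and their part in these differences was not tested.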
